A study of Mus musculus with 3 samples.

Results

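The genes described are 10 components of the Notch pathway, measured in single urothelial cells of the mouse bladder: the receptors Notch1, Notch2 and Notch3, the ligands Jag1, Jag2 and Dll1, the nuclear partner Rbpj, and the target genes Hes1, Hey1 and Heyl. They were chosen by name, and all 10 were found among the 31053 genes counted. The libraries came from wild-type mice, Lpar6 knockout mice and Cab39l knockout mice, and each was made from the pooled urothelial cells of 15 mice, loosened with trypsin inside the bladder, strained and freed of red blood cells on a Ficoll gradient. LPAR6 responds to lysophosphatidic acid at the cell surface, CAB39L is a partner that holds the kinase LKB1 in its active form, and the series asks how their loss affects the step from basal to luminal urothelium. The labels give no strain, age, sex, allele or promoter, so whether a gene is missing from all cells or from the urothelium is not known here. With 1 library per group there is no spread between mice and no test: every interval below covers counting error only, and a difference between libraries cannot be told apart from a difference between pools, preparations or runs.

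In Notch signalling a Jagged or Delta-like ligand on one cell binds a Notch receptor on its neighbour. The pulled receptor is cut by an ADAM protease and then by gamma-secretase, and its freed intracellular part enters the nucleus, where it joins Rbpj and Mastermind co-activators to switch on Hes and Hey repressors. In stratified epithelia the pathway is known for its part in the passage of cells from the basal layer into differentiation, and in the bladder basal cells carry keratin 5 (Krt5) whereas superficial cells carry the uroplakins.

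A barcode was taken as a urothelial cell when it had at least 10000 unique molecular identifiers (UMIs), at most 20% mitochondrial UMIs, and at least 0.2% of its UMIs on Upk1a, Upk1b, Upk2 and Upk3a together. This left 2887 of 8085 wild-type barcodes, 4670 of 8293 in Lpar6 knockout cells and 5171 of 9406 in Cab39l knockout cells, 12728 of 25784 in all, with 76259491 to 157714773 UMIs per library. Wild-type cells were shallower, with a median of 23652 UMIs against 27339.5 and 30904, and had a median of 8.68% mitochondrial UMIs against 6.25% and 6.12%. No Lpar6 UMI was found in the Lpar6 knockout cells, against 13.6 CPM in wild type, CPM being UMIs of a gene per 1e6 UMIs of the cells summed, and 12.1 CPM in the Cab39l knockout. Cab39l stood at 31.6 CPM in its own knockout, 112 CPM in wild type and 94.0 CPM in the Lpar6 knockout, so its transcript was reduced and not absent, and the labels do not name the deleted part. The 7 luminal markers summed to 12426 to 14915 CPM, but this sum includes the uroplakins of the rule and so is no check on it. Of the luminal keratins, which the rule did not use, Krt18 read 2610 CPM in wild type, 2931 CPM in the Lpar6 and 2950 CPM in the Cab39l knockout. Krt8 read 1282, 1206 and 1292 CPM, and Krt20 53.6, 42.8 and 32.1 CPM. Of the 3 endothelial markers Cdh5 and Kdr were at 0 and Pecam1 at 0.707 to 0.918 CPM, and the 4 fibroblast markers summed to 0.387 to 3.82 CPM. Of the 8 basal markers, Krt5, Krt15, Trp63, Itga6, Itgb4 and Cd44 were present, while Krt17 was at 0 in every library and Krt14 was at 0 but for 1 UMI in the Lpar6 knockout. Transcripts of blood cells, summed by list, set the wild-type cells apart. Of the macrophage or dendritic markers Lyz2, Csf1r and Cd74 were highest in wild type, but C1qa and C1qb were not. In wild type, the Lpar6 and the Cab39l knockout C1qa read 0.538, 0.542 and 0.659 CPM and C1qb 0.525, 0.550 and 0.736 CPM. The 3 pan-leukocyte markers summed to 5.65 CPM in wild type against 0.440 CPM in the Lpar6 and 1.11 CPM in the Cab39l knockout, the 5 macrophage or dendritic markers to 26.2, 6.09 and 14.3 CPM, the 2 neutrophil markers to 40.9, 0.157 and 0.038 CPM, and the 2 globins to 224, 98.3 and 39.1 CPM. The part of this RNA in the comparisons with wild type was not tested beyond leaving out cells with immune UMIs: 15, 2 and 7 cells had at least 0.1% of their UMIs on immune markers. Barcodes found in 2 libraries numbered 16 to 19 per pair, of which 2 to 8 were urothelial cells by the rule in both.

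The promoters of Jag2, Notch1 and Jag1 are shown because these genes, 1 receptor and its Jagged ligands, were the members with more transcript in Krt5-high cells by the widest margins summed over the 3 libraries. Each window runs 5′ to 3′ on the gene's strand, from 250 bases before to 50 after the start given by RefSeq on GRCm38.p6, and capitals mark the GC box GGGCGG read on either strand.
Jag2, chr12:112929446-112929745, minus strand: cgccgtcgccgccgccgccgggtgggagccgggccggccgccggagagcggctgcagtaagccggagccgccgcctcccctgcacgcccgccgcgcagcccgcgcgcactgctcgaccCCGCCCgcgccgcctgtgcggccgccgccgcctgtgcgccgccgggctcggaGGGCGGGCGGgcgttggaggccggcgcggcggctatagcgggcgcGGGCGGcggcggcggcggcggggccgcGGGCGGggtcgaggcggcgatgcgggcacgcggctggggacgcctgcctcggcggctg
Notch1, chr2:26503773-26504072, minus strand: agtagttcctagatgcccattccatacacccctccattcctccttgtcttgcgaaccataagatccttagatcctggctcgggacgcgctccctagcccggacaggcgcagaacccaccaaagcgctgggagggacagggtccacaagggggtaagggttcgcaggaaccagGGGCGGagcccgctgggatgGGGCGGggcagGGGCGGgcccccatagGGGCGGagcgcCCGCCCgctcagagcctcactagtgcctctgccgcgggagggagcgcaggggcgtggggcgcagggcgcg
Jag1, chr2:137116471-137116770, minus strand: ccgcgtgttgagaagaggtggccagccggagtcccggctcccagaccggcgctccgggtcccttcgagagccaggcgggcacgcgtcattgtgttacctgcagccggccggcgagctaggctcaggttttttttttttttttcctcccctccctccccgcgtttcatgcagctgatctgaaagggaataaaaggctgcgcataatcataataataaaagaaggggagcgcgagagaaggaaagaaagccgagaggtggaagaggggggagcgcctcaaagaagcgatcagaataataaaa
The Jag2 window is 86% G and C and holds 5 GC boxes, of which 1 pair overlaps, and the Notch1 window is 68.33% G and C and also holds 5. The Jag1 window is 55.67% G and C and holds none. GGGCGG occurs on either strand in 35.66% of the 32851 RefSeq windows of this length. The core of the Rbpj site, TGGGAA, and the AP-1 site TGANTCA, searched on both strands, are in none of these 3 windows. They are in 25.56% and 7.808% of all windows. Windows were at hand for 7 of the 10 members, 9 windows in all, and TGGGAA was found in 2 of them, both belonging to Rbpj. A match is a description of letters and says nothing of binding. In the GENCODE vM21 annotation of GRCm38, Jag2 (ENSMUSG00000002799) spans chr12:112907819-112929776, Notch1 (ENSMUSG00000026923) chr2:26457903-26516663 and Jag1 (ENSMUSG00000027276) chr2:137081456-137116644, all on the minus strand, and Hes1 (ENSMUSG00000022528) spans chr16:30064384-30067796 on the plus strand.

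The members covered a wide range of levels, and the same genes led in each library. Hes1, the repressor most often used as a readout of Notch activity, was highest, at 419 CPM in wild type, 337 CPM in Lpar6 knockout cells and 281 CPM in Cab39l knockout cells. Notch1 came next, with 182, 101 and 109 CPM. Both were detected in most cells: at 10000 UMIs per cell, Hes1 had a UMI in 93.6%, 93.0% and 88.0% of cells, and Notch1 in 79.8%, 61.6% and 63.0%. Jag1, Notch3, Rbpj, Jag2 and Notch2 lay between 4.61 and 34.6 CPM. At the other end, Dll1 had 19, 9 and 15 UMIs in all the cells of the wild-type, Lpar6 knockout and Cab39l knockout libraries, Hey1 had 3, 6 and 2, and Heyl had 1, 0 and 2. Hey1 and Heyl, repressors of the same family as Hes1 and both Notch targets in other tissues, were thus near the limit of detection, and 0 Heyl UMIs in the Lpar6 knockout allows a level of up to 0.0236 CPM, the level of 3 counts. The CPM values are sums over cells, and by themselves they do not tell fewer cells with a transcript from less transcript per cell.

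**Figure D1:**
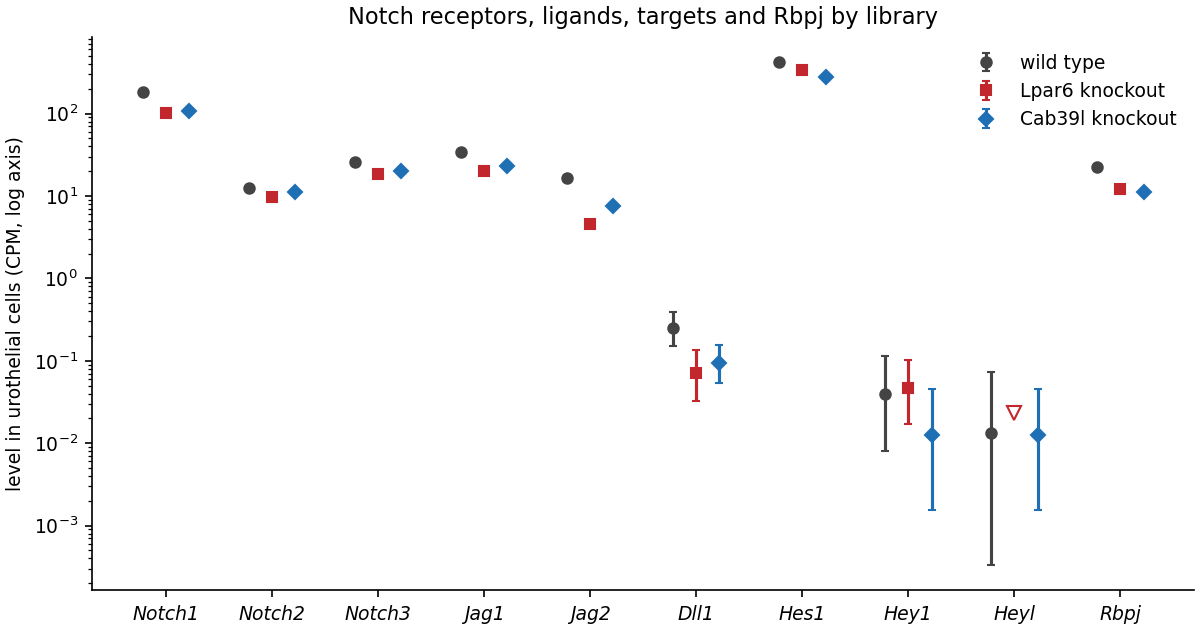
Level of each member in the urothelial cells of each library, in CPM on a log axis, with exact 95% Poisson intervals (smaller than the points where not visible). The open triangle is the level of 3 counts, drawn for Heyl, which had 0 UMIs in the Lpar6 knockout; Hes1 and Notch1 stand above the other members in all 3 libraries.

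Levels of different genes were set against each other per kilobase of the longest annotated transcript, which runs from 1.468 kb for Hes1 to 10.5 kb for Notch2; the sources used here do not say which end of the transcript was read. In wild type the order in CPM per kb was Hes1 (285.6), Notch1 (19.2), Jag1 (6.17), Rbpj (4.06), Jag2 (3.19), Notch3 (3.18), Notch2 (1.20), Dll1 (0.0696), Hey1 (0.0162) and Heyl (0.00289). Jag2 and Notch3 could not be separated by their counting intervals there, nor could Dll1 and Hey1, or Hey1 and Heyl. The order per kb in the Lpar6 knockout was Hes1 (229.4), Notch1 (10.7), Jag1 (3.56), Notch3 (2.29), Rbpj (2.23), Notch2 (0.926) and Jag2 (0.903), with overlapping intervals for Notch3 and Rbpj and for Notch2 and Jag2. In the Cab39l knockout Jag2 (1.48 CPM per kb) lay above Notch2 (1.06 CPM per kb) and below Rbpj (2.04 CPM per kb). Jag2 thus changed its place among the members from one library to another, while Hes1, Notch1 and Jag1 kept the top of the order in all 3.

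The place of each member between basal-like and luminal-like cells was read by ranking the cells of each library by the Krt5 share of their UMIs and cutting them into 5 equal groups, from group 1 (Krt5-high) to group 5 (Krt5-low). Krt5, which defines the axis, went from 729 to 46.7 CPM in wild type, from 462 to 18.8 CPM in the Lpar6 knockout and from 758 to 57.8 CPM in the Cab39l knockout. Genes not used for the ranking followed: in wild type the basal keratin Krt15 was 2592 CPM in group 1 and 290.3 CPM in group 5, and the luminal uroplakin Upk2 476 and 1208 CPM. Krt5-high cells were also shallower, with a median of 19718.5 UMIs against 26012 in wild-type group 5, and held fewer mitochondrial UMIs (6.79% against 10.1%); shares of cells are therefore given after thinning every cell to one depth, and the part of mitochondrial content was not tested. A member was counted as differing along the axis when groups 1 and 5 together held at least 50 UMIs and their levels differed at least 1.5-fold.

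Jag2 was the 1 member of 7 with enough UMIs that met this, and it did so in all 3 libraries, in each case with the higher level in Krt5-high cells. Among all genes the share at least 1.5-fold higher at the Krt5-high end was 2.94% in wild type, 2.7% in Lpar6 knockout cells and 2.91% in Cab39l knockout cells, and the share at least 1.5-fold lower, which no member reached, was 5.67%, 2.34% and 4.33%. Jag2, a ligand for Notch receptors, read 28.5, 21.9, 15.9, 10.4 and 8.01 CPM from group 1 to group 5 of wild type. The same series was 7.66, 5.25, 4.41, 3.64 and 2.64 CPM in the Lpar6 knockout. It was 13.2, 8.21, 7.36, 5.73 and 4.77 CPM in the Cab39l knockout. In all 3 libraries each group was below the one before it, and no group 5 level came within the counting interval of group 1. The ratio of group 1 to group 5 was 3.56-fold in wild type (log2 1.83, 95% interval 1.54 to 2.13), 2.90-fold in the Lpar6 knockout (log2 1.54, 1.13 to 1.96) and 2.77-fold in the Cab39l knockout (log2 1.47, 1.20 to 1.74). The 3 intervals overlap, and a difference in steepness between libraries was not tested. Among the genes compared, 18 of 10783 in wild type, 18 of 11095 in Lpar6 knockout cells and 35 of 11329 in Cab39l knockout cells had a higher ratio than Jag2. The share of cells with a Jag2 UMI, after thinning each cell to 10000 UMIs, followed the level: 25.6% in group 1 and 9.36% in group 5 of wild type, 7.92% and 2.998% in the Lpar6 knockout, and 12.8% and 5.32% in the Cab39l knockout.

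**Figure D2:**
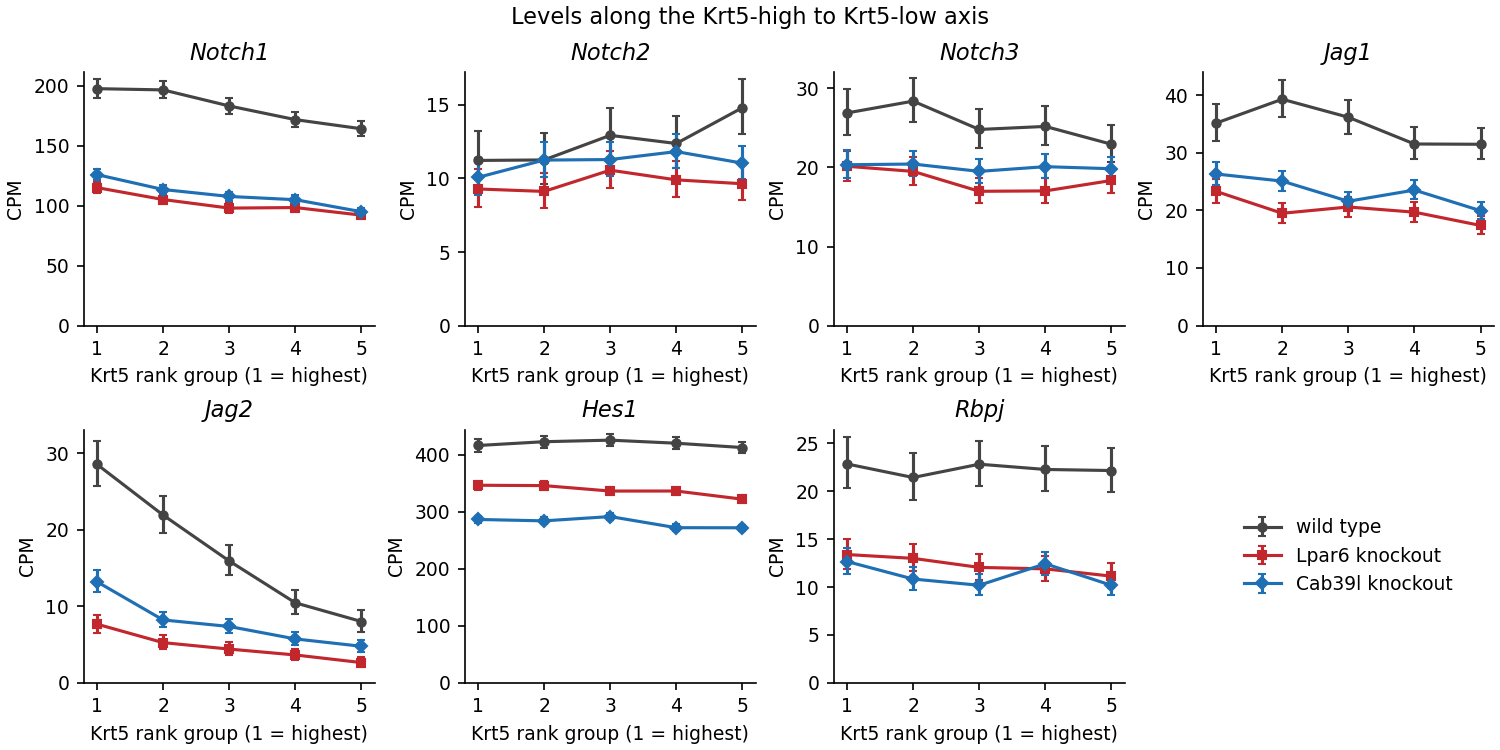
Level in CPM of the 7 members with enough UMIs in the 5 Krt5 rank groups of each library, from Krt5-high (1) to Krt5-low (5), with exact 95% Poisson intervals; each vertical axis starts at 0. Jag2 steps down from group to group in all 3 libraries (28.5 to 8.01 CPM in wild type), Notch1 declines by less, and Hes1 is nearly level.

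Notch1, the main receptor by level, had a shallower gradient in the same direction. It went from 198 to 164 CPM between groups 1 and 5 in wild type, from 115 to 92.2 CPM in the Lpar6 knockout and from 126 to 95.1 CPM in the Cab39l knockout, log2 ratios of 0.27, 0.32 and 0.41 whose counting intervals lie above 0. Jag1, the second Jagged ligand, read 35.2 and 31.5 CPM at the ends of the wild-type axis, which counting error does not separate, 23.3 and 17.4 CPM in the Lpar6 knockout, and 26.3 and 19.95 CPM in the Cab39l knockout. Its highest wild-type level was in group 2, at 39.3 CPM. Neither gene reached 1.5-fold in any library.

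Notch2 was the receptor with the reverse slope in wild type, 11.2 CPM in group 1 and 14.8 CPM in group 5 (log2 ratio -0.40, 95% interval -0.71 to -0.10). With every cell thinned to 10000 UMIs the wild-type log2 ratio of Notch2 was -0.14. In the knockouts its ends were 9.29 and 9.64 CPM and 10.1 and 11.0 CPM, with intervals that take in 0. Notch3, a receptor otherwise known mostly from vascular smooth muscle, had log2 ratios of 0.23, 0.13 and 0.04, and the interval left out 0 in wild type alone. Rbpj had ratios of 0.04, 0.27 and 0.31, with intervals above 0 in the knockouts and not in wild type. The Rbpj ratio of the Cab39l knockout was -0.09 with every cell thinned to 10000 UMIs and 0.11 with cells ranked by Krt5, Krt15 and Trp63 together. The wild-type and knockout slopes were not tested against each other.

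Hes1 was nearly level along the axis. In wild type its 5 groups read 416, 423, 425, 420 and 412 CPM, in the Lpar6 knockout 346, 346, 336, 336 and 322 CPM, and in the Cab39l knockout 286, 284, 291, 272 and 272 CPM. The ratio of group 1 to group 5 was 1.009-fold, 1.08-fold and 1.05-fold, with counting intervals above 0 on the log2 scale in the knockouts (0.06 to 0.15 and 0.03 to 0.12) and across 0 in wild type (-0.04 to 0.06). Hes1 transcript was therefore present at like levels from Krt5-high to Krt5-low cells, whereas Jag2 differed several-fold between the same cells. Dll1 had 3 and 4 UMIs at the ends of the wild-type axis, and Hey1 and Heyl had at most 2 UMIs in any group, so the place of these 3 genes could not be read.

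Ranking the cells by Krt5, Krt15 and Trp63 together in place of Krt5 gave log2 ratios for Jag2 of 2.32, 1.73 and 2.12 in wild type, the Lpar6 knockout and the Cab39l knockout. Keeping only cells with at least 0.5% uroplakin UMIs gave 1.40, 1.19 and 1.22, still above 1.5-fold in each library. Leaving out the cells with immune UMIs gave 1.83, 1.54 and 1.48, and leaving out the barcodes seen in more than 1 library, an alternative chosen after seeing the data, gave 1.84, 1.54 and 1.46.

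Against wild type, every one of the 7 members with at least 50 UMIs had a lower CPM in both knockouts, and Jag2 had the lowest ratio in each. In the Lpar6 knockout 4 of 7 were at least 1.5-fold lower, where 34.8% of all 12892 genes were; the 4 were Jag2, Rbpj, Notch1 and Jag1. In the Cab39l knockout 3 of 7 were at least 1.5-fold lower, where 35.4% of all 13020 genes were, namely Jag2, Rbpj and Notch1, while Jag1 (ratio 0.668) and Hes1 (ratio 0.669) lay just outside the threshold. No member was at least 1.5-fold higher, against 2.86% of genes in Lpar6 knockout cells and 1.91% in Cab39l knockout cells. The median member log2 ratio was -0.79 in Lpar6 knockout cells and -0.58 in Cab39l knockout cells, and the median of all genes was -0.40 and -0.38. With shares this large among all genes, the counts of lower members are not read as a result about the members.

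The lower readings went with transcript length. Genes were put into 20 groups of equal size by their longest transcript in the GENCODE vM21 annotation. In the Lpar6 knockout the median log2 ratio to wild type was 0.15 in the shortest group and -0.79 in the longest, and in the Cab39l knockout 0.09 and -0.87. Between the knockouts these medians were 0.04 and 0.08. Of the 7 members compared, all but Hes1 have transcripts of over 5 kb: Notch2 10.5 kb, Notch1 9.488 kb, Notch3 8.016 kb, Jag1 5.612 kb, Rbpj 5.485 kb and Jag2 5.106 kb. Each member's log2 ratio was therefore also given minus the median of its own length group, called length-adjusted here. Whether the trend came from the animals or from the libraries cannot be told apart.

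**Figure D3:**
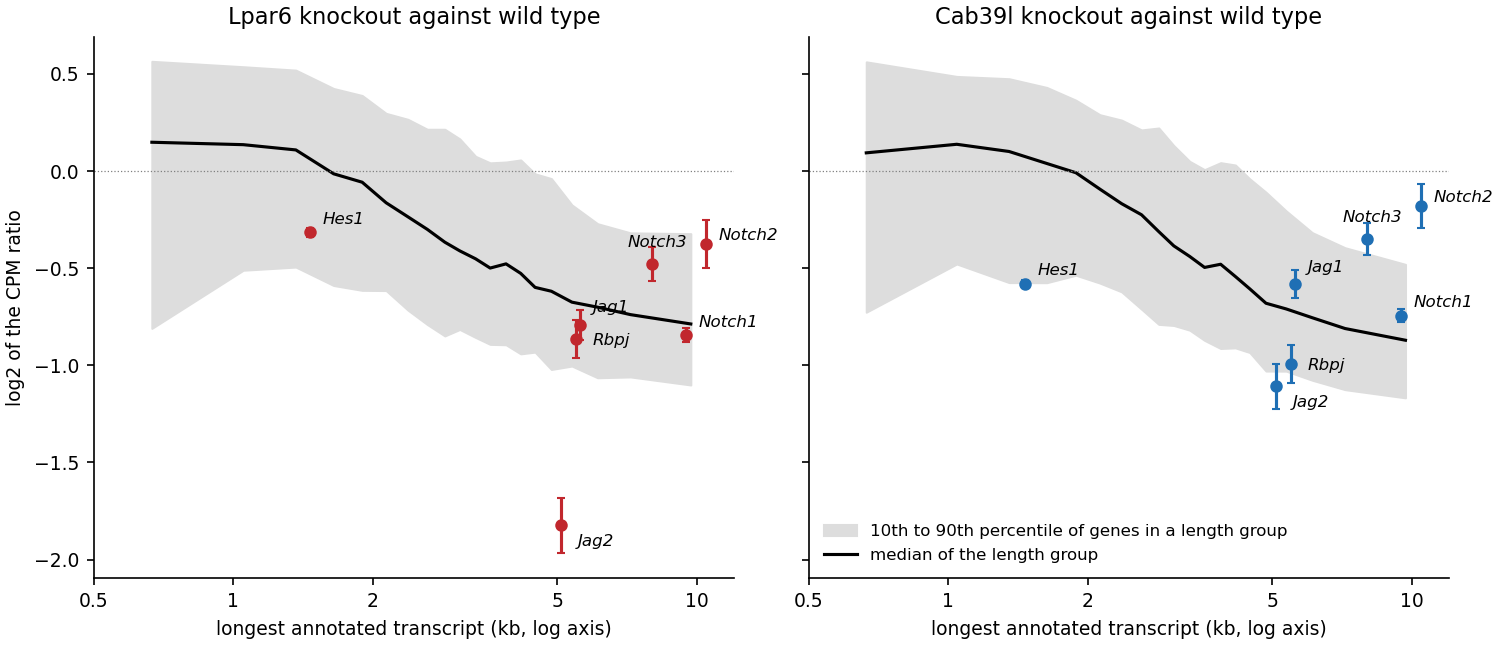
Log2 ratio of each knockout to wild type against the longest annotated transcript (kb, log axis); the line is the median and the grey band the 10th to 90th percentile of the genes in each of 20 length groups, drawn at the group's median length, and points are members with 95% counting intervals. Notch1, Jag1 and Rbpj lie within the band in both panels, and Jag2 lies far below it in the Lpar6 knockout and slightly below it in the Cab39l knockout. In the Cab39l panel Notch2 and Notch3 lie above the band at the right, and Hes1 is at its lower edge.

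After this adjustment 1 of 7 members stood at least 1.5-fold apart in the Lpar6 knockout, Jag2, where 13.7% of all genes did. In the Cab39l knockout 2 of 7 did, Hes1 lower and Notch2 higher, where 11.7% of all genes did. The median length-adjusted log2 ratio of the members was -0.12 and 0.13. No test of the members as a group was made, and what follows describes single genes.

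Jag2 had 16.3 CPM in wild type, 4.61 CPM in the Lpar6 knockout and 7.57 CPM in the Cab39l knockout, from 1244, 587 and 1194 UMIs. It was 3.54-fold lower in the Lpar6 knockout than in wild type (log2 -1.82, 95% interval -1.97 to -1.68), and 2.22-fold lower than genes of its length (log2 -1.15). Of the 644 genes in its length group, 6 had a lower ratio. In the Cab39l knockout it was 2.16-fold lower (log2 -1.11, -1.22 to -0.99) and 1.32-fold lower than genes of its length (log2 -0.40), with 36 of 650 genes below it. The Cab39l value depends on how length is measured, at -1.03 with the mean in place of the longest transcript, and on the cells, at -0.16 with at least 0.5% uroplakin UMIs; for the Lpar6 knockout the same settings gave -1.68 and -0.90. Set directly against each other, the Lpar6 knockout was 1.64-fold below the Cab39l knockout for Jag2 (log2 -0.72, -0.86 to -0.57). This was the 1 member of 7 at least 1.5-fold apart between the knockouts, where 6.78% of all 13120 genes were. At 10000 UMIs per cell, a Jag2 UMI was found in 16.4% of wild-type cells (95% interval 15.1 to 17.8%), 4.71% of Lpar6 knockout cells (4.12 to 5.36%) and 8.08% of Cab39l knockout cells (7.35 to 8.86%). Without thinning the shares were 30.2%, 10.9% and 18.9%.

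Because Jag2 follows Krt5 and the libraries differ in Krt5 (296 CPM in wild type, 186 CPM in Lpar6 knockout cells and 321 CPM in Cab39l knockout cells), the libraries were also compared within each rank group. The Jag2 log2 ratio of the Lpar6 knockout to wild type was -1.90, -2.06, -1.85, -1.52 and -1.60 from group 1 to group 5, and length-adjusted -1.38, -1.44, -1.24, -0.87 and -0.94. In the Cab39l knockout it was -1.11, -1.42, -1.11, -0.87 and -0.75, and length-adjusted -0.51, -0.76, -0.46, -0.19 and -0.05. Jag2 was thus below wild type in every group of both knockouts, and in the Cab39l knockout the length-adjusted value was near 0 in the most Krt5-low cells. Cutting all libraries at the same Krt5 levels put 24.5% of wild-type, 8.48% of Lpar6 knockout and 27.9% of Cab39l knockout cells in the range above 454 CPM Krt5. There Jag2 read 28.1 CPM in wild type, 9.87 CPM in the Lpar6 knockout and 11.8 CPM in the Cab39l knockout. In the range below 83.4 CPM Krt5 it read 7.74, 2.99 and 4.27 CPM. At equal Krt5, then, wild type was highest in both of these ranges. The Lpar6 knockout read below the Cab39l knockout in each of the 5 ranges, numbered from the highest Krt5, but by less than 1.5-fold in each. Their counting intervals were apart in range 2 (4.67 to 6.89 against 7.27 to 9.16 CPM) and range 4 (3.29 to 4.65 against 4.74 to 6.58 CPM). The intervals overlapped in the other ranges. Other basal genes were not measured at equal Krt5, and cells of the same rank group differed in Krt5 itself. In rank group 1 Krt5 read 729 CPM in wild type, 462 CPM in the Lpar6 knockout and 758 CPM in the Cab39l knockout. In rank group 1 Krt15 read 2592 CPM in wild type, 561 CPM in the Lpar6 knockout and 2423 CPM in the Cab39l knockout. Over all cells Krt15 read 1076, 208 and 1121 CPM, Itgb4 28.3, 11.4 and 14.3 CPM, and Cd44 37.3, 15.2 and 19.3 CPM. The part of these differences in that of Jag2 was not tested.

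**Figure D4:**
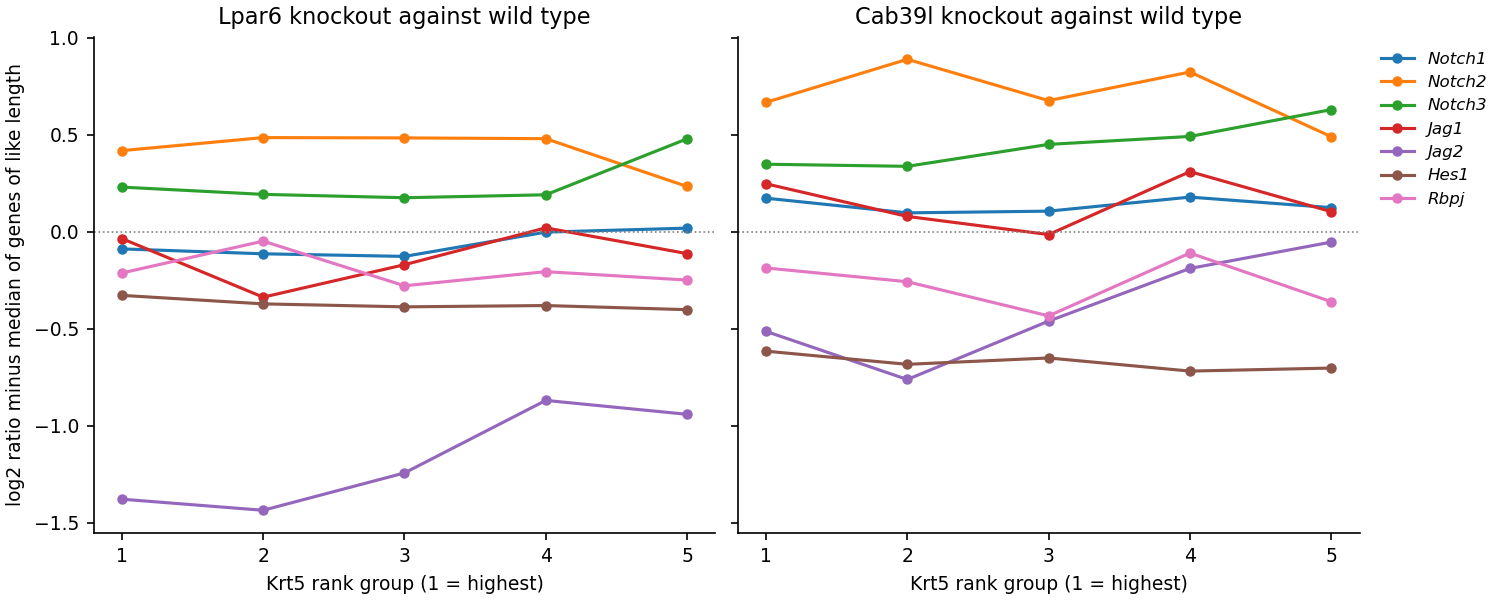
Length-adjusted log2 ratio of each knockout to wild type for the 7 members in each Krt5 rank group (1 = Krt5-high); 0 is the median of genes of like length, and no error bars are drawn. In the Lpar6 knockout Jag2 is lowest in every group (-1.44 to -0.87), and in the Cab39l knockout Hes1 keeps to between -0.72 and -0.62 while Jag2 goes from -0.51 in group 1 to -0.05 in group 5.

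Hes1 behaved otherwise. Its transcript is short, 1.468 kb, in a length class whose median was higher in the knockouts than in wild type. It was 1.25-fold lower in the Lpar6 knockout (log2 -0.32, 95% interval -0.34 to -0.30; length-adjusted -0.42) and 1.49-fold lower in the Cab39l knockout (log2 -0.58, -0.60 to -0.56; length-adjusted -0.68, 1.60-fold). Within the 5 rank groups the length-adjusted value ran from -0.40 to -0.33 in the Lpar6 knockout and from -0.72 to -0.62 in the Cab39l knockout. Hes1 was therefore lower by a like amount in Krt5-high and Krt5-low cells. Between the knockouts it was 1.20-fold higher in the Lpar6 knockout (log2 0.26, 0.24 to 0.28). The scaling of the libraries matters for its direction: with TMM or median-of-ratios factors, or relative to the median gene, Hes1 in the Lpar6 knockout turned to slightly above wild type, at most 0.11, and in the Cab39l knockout it stayed below, at -0.18 with TMM. The factors raised both knockouts by 0.39 to 0.43 on the log2 scale, a shift that leaves the length-adjusted values as they are.

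The receptors differed among themselves once length was considered. Notch1 was 1.79-fold lower in the Lpar6 knockout (log2 -0.84, 95% interval -0.88 to -0.81) and 1.68-fold lower in the Cab39l knockout (log2 -0.74, -0.78 to -0.71), values close to those of genes of like length (length-adjusted -0.06 and 0.13). With the mean transcript length these became -0.48 and -0.42, since the annotation lists 11 Notch1 transcripts that average 1519 bases. Notch2, at 12.6 CPM in wild type, 9.72 CPM in the Lpar6 knockout and 11.1 CPM in the Cab39l knockout, was 1.30-fold and 1.13-fold lower but 1.33-fold and 1.61-fold higher than genes of its length (length-adjusted 0.41 and 0.69). Notch3, with 25.5, 18.3 and 20.02 CPM, was at -0.48 and -0.35, length-adjusted 0.26 and 0.46. With TMM factors Notch2 turned to 0.05 in Lpar6 knockout cells and 0.22 in Cab39l knockout cells, and Notch3 to -0.05 and 0.05.

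Jag1 lay near the course of other genes of about 5 kb, and Rbpj lay in the lower part of their range. Among genes of like length, 204 of 644 in the Lpar6 and 438 of 650 in the Cab39l knockout had a lower ratio than Jag1. For Rbpj 144 of 644 and 80 of 650 did. Jag1 had 34.6 CPM in wild type, 19.98 CPM in the Lpar6 knockout and 23.1 CPM in the Cab39l knockout, log2 ratios of -0.79 and -0.58 and length-adjusted values of -0.12 and 0.13. Rbpj had 22.3, 12.2 and 11.2 CPM, log2 ratios of -0.86 and -0.99 and length-adjusted values of -0.19 and -0.28. The paired Jagged ligands thus parted in the Lpar6 knockout, where Jag1 was near genes of its length and Jag2 well below them. Dll1, from 19, 9 and 15 UMIs, had a ratio to wild type of 0.284 in Lpar6 knockout cells and 0.382 in Cab39l knockout cells, with intervals on the log2 scale of -3.15 to -0.60 and -2.47 to -0.34; it was below the count needed for the comparisons.

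The members were also measured in immune barcodes, cells of another type in the same libraries. These barcodes, 525 in wild type, 60 in Lpar6 knockout cells and 163 in Cab39l knockout cells, had uroplakin levels of 13.6%, 24.5% and 16.1% of those in urothelial cells, which gives the level a purely urothelial transcript would have there. Notch2 was higher in immune barcodes than in urothelial cells of wild type, 39.2 against 12.6 CPM, as was Rbpj, 51.9 against 22.3 CPM. Jag2 was at 2.94 CPM (95% interval 1.08 to 6.39 CPM) in wild-type immune barcodes, where 2.22 CPM would come with the uroplakins, and Notch3 at 1.96 CPM where 3.47 CPM would. Thinned to 2000 UMIs per barcode, Jag2 had a UMI in 4.50% of wild-type urothelial cells (median depth 23652 UMIs) and in 2 of 425 immune barcodes (0.471%, median depth 3498 UMIs). The Lpar6 knockout gave 1.006% of urothelial cells and 0 of 39 immune barcodes, too few to set a useful limit, and the Cab39l knockout 1.64% and 1 of 141. Without the urothelial cells that hold immune UMIs, the log2 ratio to wild type was -0.38 and -0.18 for Notch2 and -0.87 and -0.99 for Rbpj in the Lpar6 and Cab39l knockouts.

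**Figure D5:**
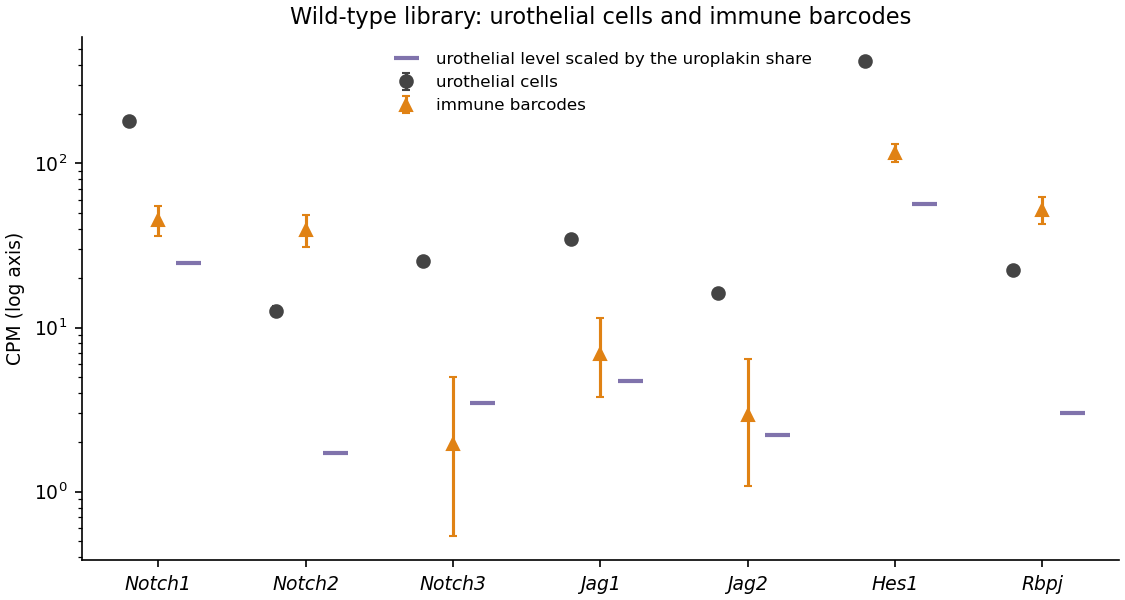
Level in CPM (log axis) of 7 members in the wild-type library, in urothelial cells and in immune barcodes, with exact 95% Poisson intervals; the bar is the urothelial level times the share of uroplakin transcript found in immune barcodes. Notch2 and Rbpj are higher in immune barcodes than in urothelial cells, while Jag1, Jag2 and Notch3 there have intervals that take in the bar.

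The genes whose course over the 15 rank groups was most like that of a member were sought among 4130 genes with at least 20 CPM in every library, by Pearson correlation of centred log2(CPM + 1). The 15 points share their ranking, library and depth, so the values describe likeness only. Closest to Notch1 were Sdc1, a cell-surface proteoglycan (r = 0.986), the basal transcription factor Trp63 (0.983) and Marcks, a substrate of protein kinase C (0.982). Trp63 went from 173 to 138 CPM along the wild-type axis, beside 198 to 164 CPM for Notch1. Closest to Hes1 were Pmepa1 (0.882), the peroxiredoxin Prdx5 (0.880) and Zfp652 (0.868), with lower values than for Notch1. The other members were below 20 CPM in at least 1 library.

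The wider pathway was read from a list of 62 further genes, of which 50 had at least 50 UMIs in each comparison of a knockout with wild type. At least 1.5-fold lower in the Lpar6 knockout were 27 of 50, with 1 higher, and in the Cab39l knockout 22 were lower and 1 higher; among all genes 34.8% and 35.4% were lower and 2.86% and 1.91% higher. Length-adjusted, these became 2 lower and 2 higher in Lpar6 knockout cells and 0 lower and 2 higher in Cab39l knockout cells, with list medians of -0.02 and -0.04; among all genes 13.7% and 11.7% stood apart in either direction. By role, 10 and 9 of the 15 co-activators and co-repressors were lower before adjustment and 0 after it. Of the 10 proteases and gamma-secretase subunits 3 and 2 were lower and 1 higher in each knockout, and after adjustment 0 were lower and 1 higher in each.

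Among single genes of the list, Neurl1b, a ubiquitin ligase that acts on ligands, read 5.87 CPM in wild type, 2.39 CPM in the Lpar6 knockout and 2.78 CPM in the Cab39l knockout. Mib1, the ligase needed in the ligand-sending cell, read 28.0, 12.04 and 13.2 CPM. Length-adjusted, Neurl1b was at -0.60 and -0.33 and Mib1 at -0.43 and -0.21. Aph1c, a gamma-secretase subunit, was the gene that was higher, at 0.420 CPM in wild type and 0.715 and 0.843 CPM in the knockouts, but Aph1b is a near-identical copy and reads may be split between them. Skp1a, part of the SCF ubiquitin ligase, read 136 CPM in wild type and 161 CPM in the Lpar6 knockout, and Aph1a 42.2 CPM in wild type and 48.8 CPM in the Cab39l knockout. Notch4, the receptor best known from endothelium, was level at 1.13, 1.14 and 1.13 CPM, which put it 0.75 and 0.82 above genes of its length. The lowest length-adjusted values were those of Hes2 in both knockouts (-0.73 and -0.48), beside Neurl1b in the Lpar6 knockout and the protease Adam17 (-0.37) in the Cab39l knockout. None of the 50 genes of the list with at least 50 UMIs was at least 1.5-fold apart between the knockouts, where 6.78% of all 13120 genes were.

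Along the Krt5 axis the genes of the wider list past 1.5-fold were 1 of 44 in wild type, 1 of 45 in Lpar6 knockout cells and 3 of 46 in Cab39l knockout cells. These were Nrarp in wild type, Maml2 in the Lpar6 knockout, and Nrarp, Numbl and Aph1c in the Cab39l knockout, the last pair named after their values were seen. All but Aph1c were higher at the Krt5-high end, where 2.94%, 2.7% and 2.91% of all genes were, and Aph1c was lower there, as were 4.33% of all genes in the Cab39l knockout. Nrarp, a feedback inhibitor that is itself a Notch target, was higher at the Krt5-high end in each library, with 133 against 88.4 CPM in wild type, 95.1 against 72.3 CPM in the Lpar6 knockout and 123 against 74.4 CPM in the Cab39l knockout. It passed 1.5-fold in wild type and the Cab39l knockout. Maml2, a Mastermind co-activator, had 18.7 against 14.4 CPM, 12.6 against 8.34 CPM and 14.2 against 10.4 CPM. At the other end stood Dtx4, a ubiquitin ligase of the Deltex family, with 22.5 CPM in Krt5-high and 31.2 CPM in Krt5-low cells of wild type. The target Nrarp thus had more transcript toward the Krt5-high end, as Jag2 and Notch1 did. Its log2 ratios in wild type, the Lpar6 and the Cab39l knockout were 0.59, 0.40 and 0.72. Those of the target Hes1 had the same sign but were smaller, at 0.01, 0.11 and 0.08.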

How the data were processed

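Single-cell libraries were made on the 10x Genomics platform, 1 from each pool of 15 mice. The authors deposited raw UMI counts per gene and barcode, made with Cell Ranger 3.0.2 on mm10, per the submitters' processing notes. Depth was 101977647 to 175075246 UMIs per library, so counting error is small for the 7 members with at least 50 UMIs in a comparison. Counts were summed over cells and given as CPM with exact 95% Poisson intervals, ratios with exact conditional intervals and shares of cells with exact Clopper-Pearson intervals. All cover counting error only. A gene at 0 was set at 3 counts. Transcript lengths and gene positions came from GENCODE vM21, which held 99.9% of the 31053 gene identifiers. Scrublet marked 22 of 4326, 0 of 5838 and 0 of 6657 barcodes and so had not worked. Doublets were kept, and removal of the 6% with the highest scores was an alternative. Immune barcodes had at least 1000 UMIs and at least 0.5% immune marker UMIs. Genes named beyond the members were the 2 highest and 2 lowest of the wider list in each comparison and the 3 most alike per member; 1 gene of the wider list is not reported here. The members and lists were chosen with earlier results of these data known. The calculations were tested on simulated data. Python 3.11.15, numpy 2.4.6, scipy 1.17.1 and scanpy 1.11.5 were used. The alternatives changed the cell filters, scaling, depth, thresholds, length measure and axis.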

Additional observations from a re-analysis of the deposited data

How the results depend on the processing

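Of 191 repeats of the counts of members under other settings, 171 stayed within 1.5 times the reported count and 20 did not. In the Cab39l knockout the count of lower members was 5 with cells weighted equally and with cells thinned to 10000 UMIs, where Jag1 and Hes1 passed 1.5-fold, and also 5 with no low-count minimum, where Dll1 and Hey1 did. A threshold of 2-fold left 1 lower member in each knockout, 0 apart in the Cab39l knockout after length adjustment and 0 apart between the knockouts. In the Lpar6 knockout 1 member was lower with TMM factors, with median-of-ratios factors and relative to the median gene. Relative to the median gene, 7.88% of all 12892 genes were lower there. Thinning left 1 member apart in the Cab39l knockout after length adjustment. With no low-count minimum, which adds genes of a few UMIs, 4 members were apart after length adjustment in each knockout, 3 between the knockouts, and in each library 2 members were higher at the Krt5-high and 1 at the Krt5-low end. Shares of all genes under the other settings are not given here, so these counts are not read as results about the members. Of 959 repeats of single-gene values, 833 moved by less than their counting interval and 126 by more. Some small values changed sign. Hes1 and Notch2 in the Lpar6 knockout against wild type kept their direction in 14 of 17 settings each. The same held for Notch2 and Notch3 in the Cab39l knockout. Some small values along the axis or after length adjustment changed sign as well. No paired analysis was possible because each group has 1 library. Depth limits Dll1, Hey1 and Heyl, which are not readable in single groups of cells.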
